A study of Mus musculus with 36 samples.

Results

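The genes described here encode enzymes and helpers that modify collagen after its chains are made: the lysyl oxidases Lox, Loxl1, Loxl2 and Loxl3, the procollagen C-proteinase enhancer Pcolce, the prolyl 4-hydroxylase alpha subunits P4ha1 and P4ha3, the lysyl hydroxylases Plod1 and Plod2, and the collagen chaperone Serpinh1. They were chosen by symbol from the deposited gene table, which lists 16415 genes, and all 10 were found there. Left ventricles came from male C57BL/6 mice that were 8 weeks old when the left anterior descending coronary artery was tied (MI) or when the same operation was done with no occlusion (sham). mRNA was sequenced at an early (1 day), a middle (1 week) and a late stage (8 weeks), in 3 libraries for each of 6 groups, 18 in all. The RNA came from pooled ventricles, and the labels do not say how many animals a library holds or that libraries are separate animals, so that the p-values cover no more than the variation among these samples. No gene was altered in any group, and every MI group was set against the sham group of its own stage.

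Collagen chains are hydroxylated in the endoplasmic reticulum, where prolyl 4-hydroxylase stabilises the triple helix, lysyl hydroxylases prepare lysines for crosslinking and the chaperone HSP47 (Serpinh1) holds the folded procollagen. Outside the cell the propeptides are cut off and lysyl oxidases oxidise lysines, which then form covalent links between collagen or elastin molecules. In the infarcted heart these steps belong to the building of the scar by fibroblasts, and several genes of this kind are also known to be switched on by hypoxia-inducible factors.

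Levels are given in FPKM, fragments per kilobase of gene, scaled to the mapped fragments of the library, as the authors deposited them, so that levels of different genes can be compared per length. Fold changes are differences of log2(FPKM + 1), which understate the change of genes with low FPKM, and they were tested with limma over the 12858 genes that had at least 1 FPKM in at least 3 libraries. All 10 genes passed this filter. A gene was called changed at a Benjamini-Hochberg adjusted p below 0.05. The absolute depth is unknown, since no counts were used, but the FPKM worth of 1 fragment differed by at most 1.38 times between libraries. The median of all tested genes was itself shifted in MI by 0.09, 0.79 and 0.52 log2 at the 3 stages, and a change called relative has this shift taken off. At 1 day the test called 5111 of the tested genes higher and 3935 lower, against 4356 and 5407 after quantile normalisation. At the later stages 9365 were higher and 2124 lower at 1 week, against 5203 and 5179, and 9056 and 1358 at 8 weeks against 3783 and 5263. The 3 MI libraries of 8 weeks stood apart from each other, as described in the last paragraphs.

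With FPKM scaled as deposited, infarction raised 4 of the 10 genes at the early stage, all 10 at the middle stage and 9 at the late stage, and lowered none that passed the test. At 1 day Lox, Loxl2, P4ha1 and Plod2 rose, with log2 fold changes of 1.20 to 3.14, while the background was 39.7 percent of all tested genes called higher and 30.6 percent called lower. At 1 week the changes ran from 1.31 (Plod1) to 6.64 (Lox), in a comparison that called 72.8 percent of genes higher and 16.5 percent lower. At 8 weeks every gene but Plod1 rose, against 70.4 percent of all genes higher and 10.6 percent lower. Quantile normalisation left 7 of the 10 genes higher and made Plod1 lower at 8 weeks, as did median-ratio factors. Of all tested genes these scalings called 3783 and 4574 higher and 5263 and 4767 lower. The median log2 fold change over the 10 genes was 0.38, 3.84 and 2.24 at the 3 stages, or 0.28, 3.05 and 1.72 relative to the median of all tested genes. The 4 genes called at 1 day rest on a spread pooled over all 6 groups. With the 1 day libraries fitted alone 8 genes were called higher and Pcolce lower, in a fit that called 44.1 percent of all genes higher and 33.9 percent lower, and the remaining gene, Plod1, was not called. Calls at the other stages rest on the same pooled spread, which does not follow the wide spread of the MI libraries of 8 weeks. Lox, Loxl1, Loxl2, Loxl3, P4ha3, Plod2 and Pcolce were called at 8 weeks in all 14 alternative fits. Their highest adjusted p (limma) ran from 0.00053 (Loxl3) to 0.00467 (Loxl2), with Lox at 0.00203. P4ha1 and Serpinh1 were called in 12 and 11 of the 14.

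**Figure D1:**
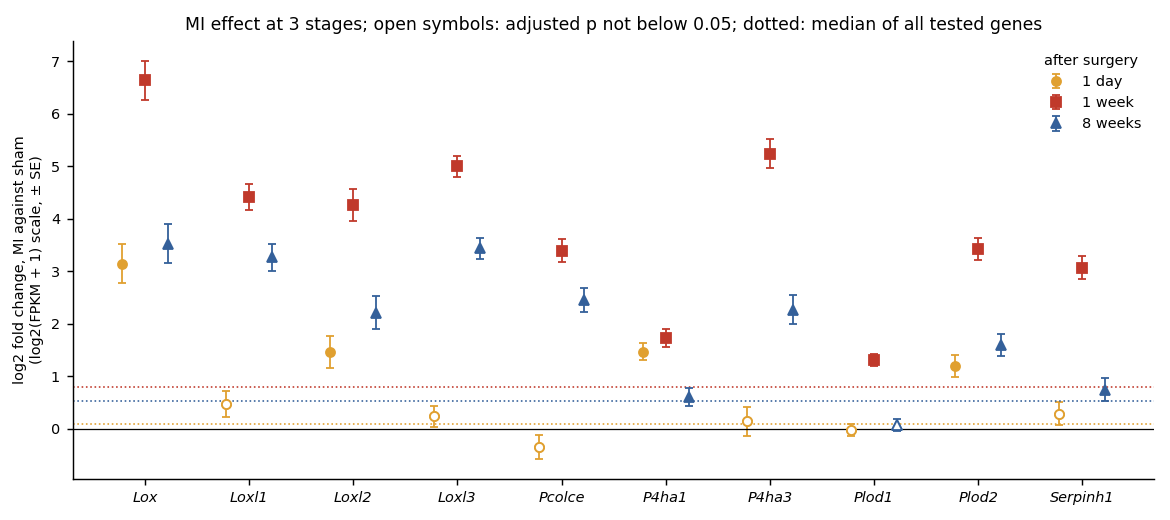
log2 fold change of MI against sham (log2(FPKM + 1) scale, ± SE from limma) for each gene at each of the 3 stages, with open symbols where the adjusted p was not below 0.05 and dotted lines at the median of all tested genes for the stage. The 1 week value is the highest of the 3 stages for each gene, from 1.31 for Plod1 to 6.64 for Lox, and P4ha1 lies at 1.47 at 1 day and 1.73 at 1 week.

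The 3 MI libraries lay above the 3 sham libraries without overlap for 8, 10 and 9 genes at the 3 stages, where 45.4, 74.8 and 66.3 percent of all tested genes did so. Pcolce at 1 day was the only gene of the 10 whose MI libraries all lay below sham, as 35.9 percent of tested genes did. In bulk tissue a change in the number of cells that express a gene and a change of RNA per cell cannot be told apart. Cell type markers moved too, in ways that differed from list to list. The mean log2(FPKM + 1) of 10 markers of activated fibroblasts was 2.18 to 2.34 in sham and 2.71 to 2.82 in MI at 1 day, 2.76 to 2.95 and 7.54 to 7.86 at 1 week, and 1.93 to 1.995 and 4.80 to 6.22 at 8 weeks. At 1 day these markers were split, 3 being called higher and 2 lower, against 39.7 and 30.6 percent of all tested genes. Their median log2 fold change at that stage was -0.22. The mean log2(FPKM + 1) of 15 ventricular cardiomyocyte markers, which identify the labelled tissue, was 10.7 to 10.8 in sham and 9.001 to 9.33 in MI at 1 day, 10.8 to 10.9 and 6.73 to 8.46 at 1 week. Neutrophil markers, 7 of the 8 listed being found, stood at 1.19 to 1.69 in sham and 7.74 to 8.41 in MI at 1 day. They stood at 1.12 to 1.66 and 2.23 to 2.62 at 1 week, and at 0.714 to 1.17 and 1.27 to 2.26 at 8 weeks. Endothelial markers stood at 4.84 to 5.11 in sham and 5.42 to 5.60 in MI at 1 day. At 1 week they stood at 4.89 to 5.28 and 5.33 to 5.35, and at 8 weeks at 4.88 to 4.96 and 4.63 to 5.35. Those of smooth muscle and pericytes stood at 4.23 to 4.42 in sham and 3.65 to 3.84 in MI at 1 day. At 1 week they stood at 4.15 to 4.32 and 4.93 to 5.24, and at 8 weeks at 4.14 to 4.25 and 5.02 to 5.21. Markers of macrophages, 8 genes, stood at 2.75 to 3.26 in sham and 4.47 to 4.90 in MI at 1 day, 2.63 to 3.13 and 6.74 to 6.85 at 1 week, and 2.48 to 2.76 and 4.61 to 5.81 at 8 weeks. Markers of chondrocytes or tendon cells, also 8, stood at 0.406 to 0.493 in sham and 0.433 to 0.476 in MI at 1 day, 0.549 to 0.646 and 3.99 to 4.45 at 1 week, and 0.412 to 0.546 and 3.30 to 4.87 at 8 weeks. The part of these cells in the changes below was not tested.

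In sham hearts the 10 genes spanned a wide range of levels, in nearly the same order at each stage. Serpinh1 was the most abundant, at 102 ± 4.65, 88.2 ± 14.9 and 87.5 ± 9.07 FPKM (mean ± s.d., n = 3) in the early, middle and late groups. Plod1 followed at 22.7 to 25.3 FPKM and Pcolce at 16.0 to 21.7 FPKM in the group means, and the libraries of these 2 genes overlapped at 1 week only. P4ha1 and Loxl1 came next and overlapped at 1 week. Plod2 and Loxl2 lay between 3.46 and 6.91 FPKM and also overlapped at 1 week only, and Loxl1 and Plod2 overlapped at 8 weeks. Lox lay at 1.01 to 3.26 FPKM and Loxl3 at 1.03 to 1.45 FPKM, with overlap at 1 day and 8 weeks, and P4ha3 was close to absent at 0.0237 to 0.222 FPKM. None of the 10 genes was called different between sham stages by limma, where 1.42 percent (1 week against 1 day) and 0.848 percent (8 weeks against 1 week) of genes were called. At an unadjusted p below 0.05 Lox differed in the former, and Lox, Loxl1, Loxl2 and P4ha1 in the latter. Sham libraries of 1 week held more Lox than any other sham library, 2.45 to 3.68 against 0.916 to 1.68 FPKM. Fitted alone, the pair of sham groups gave a call for Lox at 1 week against 1 day (adjusted p = 0.0126) and for 4 genes at 8 weeks against 1 week, Lox, Loxl1, Loxl2 and Loxl3, all lower at 8 weeks, in fits that called 6.88 and 7.83 percent of all genes in either direction.

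**Figure D2:**
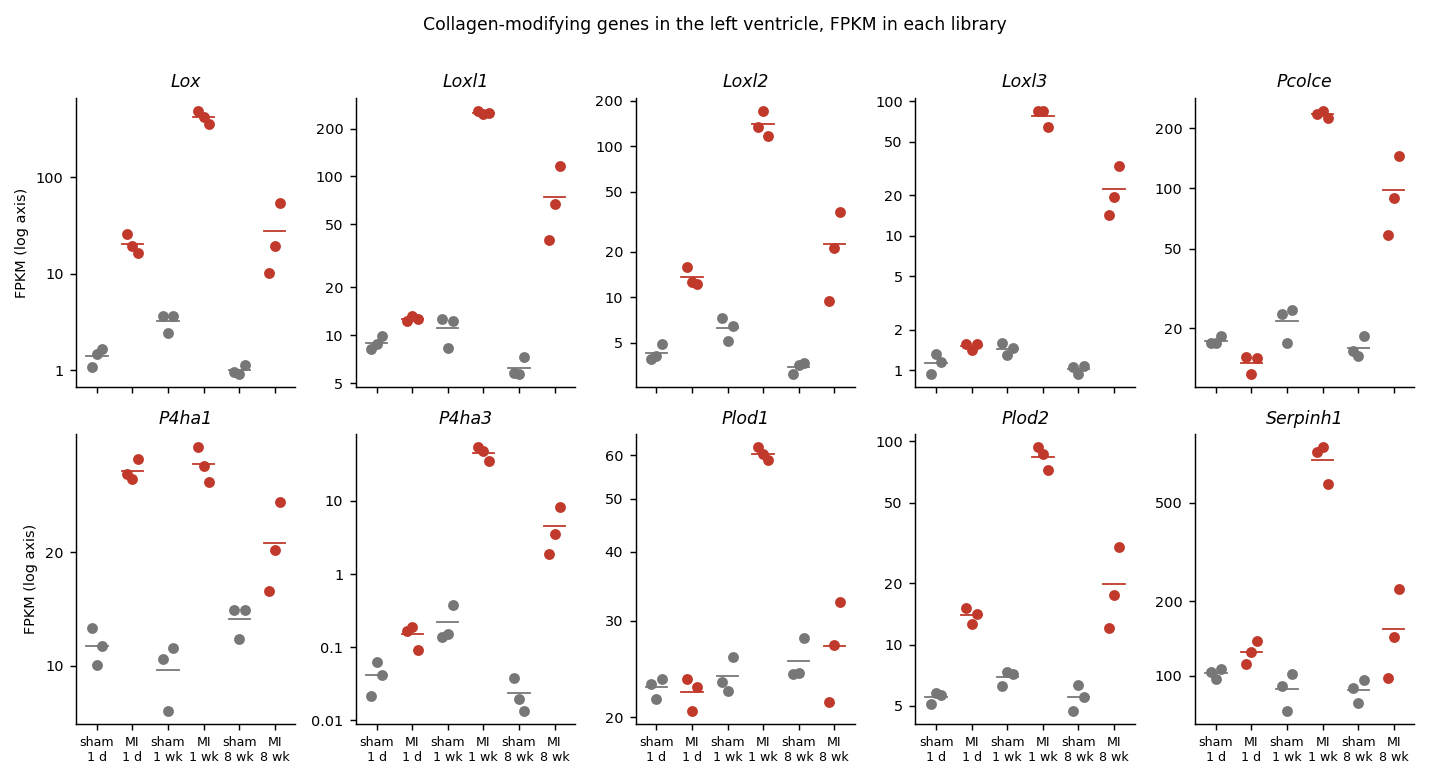
FPKM of the 10 genes in each of the 18 libraries (log axes that differ between panels; points, libraries; lines, means of 3; grey, sham; red, MI). The MI libraries of 1 week are the highest of each gene except P4ha1, whose MI libraries reach 31.3 to 35.3 FPKM at 1 day and 30.8 to 38.0 at 1 week.

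Lox, which encodes the founding lysyl oxidase, had the largest change of the 10 genes at each stage on the log2(FPKM + 1) scale. The gene lies on chr18:52516060-52529867 (minus strand, GRCm38.p6). At 1 day its level was 1.07, 1.47 and 1.68 FPKM in the sham libraries and 25.8, 19.5 and 16.4 FPKM in the MI libraries. At 1 week it was 3.68, 2.45 and 3.66 FPKM in sham and 485, 424 and 357 FPKM in MI. At 8 weeks it was 0.971, 0.916 and 1.15 FPKM in sham and 10.1, 19.3 and 53.6 FPKM in MI. The groups were far apart at every stage, and only the MI libraries of 8 weeks were widely spread, replicate 3 holding 5.30 times the level of replicate 1. The log2 fold changes were 3.14 ± 0.37 (SE; adjusted p = 1.65e-06), 6.64 ± 0.37 (4.78e-10) and 3.52 ± 0.37 (7.6e-07). In MI hearts of 1 week Lox came next after Serpinh1 in level, with no overlap between them, while in sham it held rank 8 of 10. The other neighbours in level at that stage, Loxl1, Pcolce, Loxl2, Plod2, Loxl3, Plod1, P4ha3 and P4ha1 in falling order, overlapped only between Plod2 and Loxl3 and between P4ha3 and P4ha1.

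Loxl1, a lysyl oxidase known for its part in elastic fibres (chr9:58287723-58313212, minus strand), was hardly moved at 1 day and rose later. Its level at 1 day was 8.18, 8.79 and 9.84 FPKM in sham and 12.4, 13.2 and 12.6 FPKM in MI. Although these groups did not overlap, the change was not called (log2 fold change 0.47 ± 0.25, adjusted p = 0.112). At 1 week sham libraries held 12.6, 8.30 and 12.2 FPKM and MI libraries 258, 246 and 251 FPKM, which differed from each other by only 1.05 times between the highest and the lowest. At 8 weeks the levels were 5.75, 5.69 and 7.28 FPKM in sham and 40.1, 67.0 and 117 FPKM in MI. The changes of 4.41 ± 0.25 (adjusted p = 5.63e-10) and 3.26 ± 0.25 (4.07e-08) were both called.

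Loxl2, which crosslinks collagen IV and fibrillar collagens (chr14:69608692-69695834, plus strand), rose from the early stage on. It was at 3.90, 4.12 and 4.92 FPKM in sham and 16.0, 12.6 and 12.3 FPKM in MI at 1 day. At 1 week it was at 7.28, 5.15 and 6.49 FPKM in sham and 134, 171 and 116 FPKM in MI. At 8 weeks sham libraries held 3.11, 3.58 and 3.68 FPKM and MI libraries 9.43, 21.3 and 36.7 FPKM. No MI library reached down to a sham library at any stage, and the log2 fold changes were 1.46 ± 0.31, 4.27 ± 0.31 and 2.21 ± 0.31 (adjusted p = 0.000498, 3.81e-09 and 1.04e-05).

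Loxl3, a family member that also carries scavenger receptor domains (chr6:83034205-83052566, plus strand), was near the lower limit in sham hearts and stayed there at 1 day of MI. Its level at 1 day was 0.939, 1.32 and 1.16 FPKM in sham and 1.56, 1.41 and 1.56 FPKM in MI, a change that was not called (0.23 ± 0.20, adjusted p = 0.303). At 1 week sham libraries held 1.60, 1.29 and 1.46 FPKM and MI libraries 84.0, 84.5 and 64.8 FPKM. At 8 weeks the values were 1.06, 0.944 and 1.09 FPKM in sham and 14.2, 19.4 and 32.8 FPKM in MI. Both later stages were thus separated without overlap, with log2 fold changes of 4.998 ± 0.20 (adjusted p = 2.4e-11) and 3.43 ± 0.20 (2.28e-09). Loxl3 shares 1301 bases with Htra2 on the other strand, and whether strands were kept apart is not given in the sources used here. Antisense long non-coding RNA genes overlap Loxl2 and Plod2 as well.

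Pcolce, whose product speeds the removal of the C-propeptide of procollagen by BMP1 (chr5:137605105-137611522, minus strand), rose at the middle and late stages. At 1 day sham libraries held 16.9, 16.9 and 18.3 FPKM and MI libraries 14.4, 11.8 and 14.2 FPKM. All 3 MI libraries lay below all sham libraries, but the difference did not pass the test (-0.35 ± 0.22, adjusted p = 0.177). It passed with quantile normalisation (-0.57), with median-ratio factors (-0.48) and with the 1 day libraries alone. At 1 week the level was 23.7, 16.8 and 24.7 FPKM in sham and 237, 244 and 225 FPKM in MI. At 8 weeks it was 15.4, 14.5 and 18.3 FPKM in sham and 58.8, 89.3 and 146 FPKM in MI. The rises of 3.39 ± 0.22 (adjusted p = 1.81e-09) and 2.45 ± 0.22 (1.85e-07) were called, and at 8 weeks Pcolce had the next highest level after Serpinh1, with overlapping libraries.

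P4ha1, the widely expressed alpha subunit of prolyl 4-hydroxylase (chr10:59323197-59373304, plus strand), was as high at 1 day of MI as at 1 week. At 1 day it was at 12.6, 10.02 and 11.3 FPKM in sham and 32.4, 31.3 and 35.3 FPKM in MI. At 1 week sham libraries held 10.4, 7.59 and 11.2 FPKM and MI libraries 38.0, 33.9 and 30.8 FPKM. At 8 weeks the levels were 14.0, 11.8 and 14.1 FPKM in sham and 15.8, 20.3 and 27.3 FPKM in MI. The log2 fold changes were 1.47 ± 0.16 (adjusted p = 7.95e-07), 1.73 ± 0.16 (6.67e-08) and 0.60 ± 0.16 (0.00327). Its MI effect at 1 week minus that at 1 day was 0.26 ± 0.23 (adjusted p = 0.328), and this difference turned to -0.15 with quantile normalisation and to -0.54, called lower, with median-ratio factors. The change at 8 weeks was only 0.08 relative to the median of all genes, was not called with quantile normalisation (0.09, adjusted p = 0.524) and turned to -0.07 with median-ratio factors.

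P4ha3, an alpha subunit with a narrow range of tissues (chr7:100285489-100319701, plus strand), was close to 0 in all sham libraries and in MI at 1 day. Its level at 1 day was 0.0212, 0.0623 and 0.0413 FPKM in sham and 0.167, 0.191 and 0.0929 FPKM in MI, under the pseudocount of 1 FPKM in each case (log2 fold change 0.14 ± 0.27, adjusted p = 0.662). At 1 week it was 0.139, 0.153 and 0.374 FPKM in sham and 53.5, 48.0 and 35.0 FPKM in MI. At 8 weeks it was 0.0382, 0.0193 and 0.0136 FPKM in sham and 1.88, 3.53 and 8.21 FPKM in MI. The rises at the middle and late stages were called, at 5.23 ± 0.27 (adjusted p = 2.82e-10) and 2.27 ± 0.27 (2.79e-06). With a pseudocount of 0.1 FPKM the 3 values were 0.81 (adjusted p = 0.0727), 7.20 and 4.99, the last 2 of them above those of Lox (6.98 and 4.31). The ratio of the group means was 205 at 1 week and 191 at 8 weeks, but its denominators are levels at which few fragments fall on the gene.

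P4ha1 and P4ha3 encode the same kind of subunit. Bases just before the annotated start of each gene are shown, 151 and 219 of them, from RefSeq (GRCm38.p6, plus strand for both). Capitals mark ACGTG or GCGTG on either strand, the core letters that hypoxia-inducible factors are known to bind.
P4ha1, chr10:59323046-59323196: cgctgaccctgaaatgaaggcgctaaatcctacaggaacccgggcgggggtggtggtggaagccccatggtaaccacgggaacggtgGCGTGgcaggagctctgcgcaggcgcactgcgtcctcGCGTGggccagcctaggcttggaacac
P4ha3, chr7:100285270-100285488: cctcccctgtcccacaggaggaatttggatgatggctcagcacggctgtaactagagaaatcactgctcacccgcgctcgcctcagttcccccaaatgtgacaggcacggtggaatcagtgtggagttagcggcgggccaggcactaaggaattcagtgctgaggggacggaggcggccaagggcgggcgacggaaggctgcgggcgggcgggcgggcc
The P4ha1 stretch holds 2 matches and the P4ha3 stretch 0. The promoter windows of RefSeq, 250 bases before and 50 after a listed transcription start, reach past the annotated gene start of both genes and hold 3 and 0 matches. Of these windows of 300 bases, 4 of 5 that could be looked up for the genes described here (P4ha1, Plod1, Serpinh1 and Pcolce, but not P4ha3) held at least 1 match, as did 43.8 percent of 32851 promoters of the same length. Of these 4 genes only P4ha1 was called higher at 1 day in the fit of all 6 groups. Whether the matches have a part in the timing of any gene was not tested. Short cores like these occur often, and a match is a description of the letters, not a site. Serpinh1 and P4ha3 lie on the same chromosome, as do Loxl1 and Plod2.

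Plod1, the lysyl hydroxylase that acts on the helical part of collagen (chr4:147909753-147936776, minus strand), was called changed at 1 week only. At 1 day sham libraries held 23.0, 21.6 and 23.5 FPKM and MI libraries 23.5, 20.6 and 22.7 FPKM. At 1 week the levels were 23.2, 22.3 and 25.7 FPKM in sham and 61.9, 60.2 and 58.8 FPKM in MI. At 8 weeks they were 23.9, 24.1 and 27.9 FPKM in sham and 21.3, 27.0 and 32.5 FPKM in MI. The groups overlapped at 1 day and 8 weeks, and the log2 fold changes were -0.03 ± 0.11 (adjusted p = 0.838), 1.31 ± 0.11 (2.75e-08) and 0.07 ± 0.11 (0.569). The value at 8 weeks depended on the scaling and on single libraries. It was called lower with quantile normalisation (-0.40) and median-ratio factors (-0.62), called higher without MI replicate 1 (0.22, adjusted p = 0.0334), and stood at -0.07 without MI replicate 3.

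Plod2, the lysyl hydroxylase of the telopeptides, whose product sets the type of crosslink that lysyl oxidases make (chr9:92539636-92608428, plus strand), rose at each stage. Its level at 1 day was 5.09, 5.74 and 5.66 FPKM in sham and 15.1, 12.7 and 14.1 FPKM in MI. At 1 week it was 6.26, 7.31 and 7.18 FPKM in sham and 93.3, 86.7 and 72.5 FPKM in MI. At 8 weeks it was 4.73, 6.32 and 5.51 FPKM in sham and 12.1, 17.5 and 30.2 FPKM in MI. MI and sham libraries never overlapped, and the log2 fold changes of 1.20 ± 0.21, 3.42 ± 0.21 and 1.60 ± 0.21 were called (adjusted p = 0.000104, 1.07e-09 and 7.24e-06). The log2 ratio of Plod2 to Plod1 within a library, on FPKM + 1, does not depend on how that library was scaled except through the pseudocount. It was higher in MI by 1.23, 2.11 and 1.52 at the 3 stages, with no overlap at any stage. An exact two-sided permutation test of 3 against 3 libraries gave p = 0.1 each time, the smallest it allows.

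Serpinh1, which encodes HSP47 (chr7:99345375-99353239, minus strand), was the most abundant of the 10 genes in every group and rose mainly at 1 week. At 1 day it was at 103, 97.1 and 106 FPKM in sham and 112, 125 and 138 FPKM in MI, a difference that was not called (0.28 ± 0.22, adjusted p = 0.265). At 1 week sham libraries held 90.7, 72.2 and 102 FPKM and MI libraries 803, 837 and 598 FPKM (3.06 ± 0.22, adjusted p = 3.99e-09). At 8 weeks the levels were 89.2, 77.6 and 95.5 FPKM in sham and 97.7, 144 and 223 FPKM in MI. MI replicate 1 of that stage lay just above the highest sham library, and replicate 3 was far higher. The rise at 8 weeks was called (0.74 ± 0.22, adjusted p = 0.00608), was 0.22 relative to the median of all genes, fell to 0.44 (adjusted p = 0.0364) without replicate 3, and was not called with quantile normalisation (0.40, adjusted p = 0.093), median-ratio factors (0.03, adjusted p = 0.858) or the 8 week libraries alone (adjusted p = 0.0506).

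Serpinh1 did not keep pace with Col1a1, the collagen I alpha 1 chain that its product folds. Col1a1 rose from 36.9 ± 7.97 to 3456 ± 597 FPKM at 1 week and from 11.5 ± 0.858 to 278 ± 224 FPKM at 8 weeks. The log2 ratio of Serpinh1 to Col1a1 was 1.18, 1.34 and 1.21 in the sham libraries of 1 week and -2.22, -2.20 and -2.21 in the MI libraries. Sham hearts thus held more Serpinh1 than Col1a1 per length, and MI hearts of 1 week less. At 8 weeks the ratio fell from 2.82 ± 0.12 in sham to -0.61 ± 0.56 in MI. MI minus sham was 0.47, -3.45 and -3.43 at the 3 stages, without overlap at any stage (exact two-sided permutation test, p = 0.1 each, the smallest possible).

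Within the lysyl oxidases the share of each gene changed with MI. Loxl1 held 47.6 to 57.2 percent of the summed FPKM of Lox, Loxl1, Loxl2, Loxl3 and Loxl4 in the sham libraries of all stages, and Lox 7.50 to 15.3 percent. In MI libraries Lox held 36.4 to 44.6 percent at 1 day and 45.0 to 50.3 percent at 1 week, where Loxl1 held 26.5 to 31.6 percent. At 8 weeks of MI Loxl1 was again the largest, at 48.3 to 53.6 percent, with Lox at 13.5 to 22.1 percent and Loxl3 at 13.5 to 19.0 percent. The sum of the 5 genes was 22.3 ± 4.28 FPKM in sham and 896 ± 90.9 FPKM in MI at 1 week, and 11.9 ± 1.30 and 149 ± 85.6 FPKM at 8 weeks. The log2 ratio of Lox to Loxl1 was higher in MI by 2.68 at 1 day and 2.23 at 1 week without overlap (exact two-sided permutation test, p = 0.1, the smallest possible). At 8 weeks it was higher by 0.26 on FPKM + 1 (p = 0.4 in the same exact test) with overlapping libraries, and by 0.03 without MI replicate 3. Lox in sham was then at 1.01 FPKM, about the size of the pseudocount, and with a pseudocount of 0.1 the difference was 0.88. The share of Lox at 8 weeks did not overlap, at 8.11 to 8.87 percent in sham against 13.5 to 22.1 percent in MI.

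**Figure D3:**
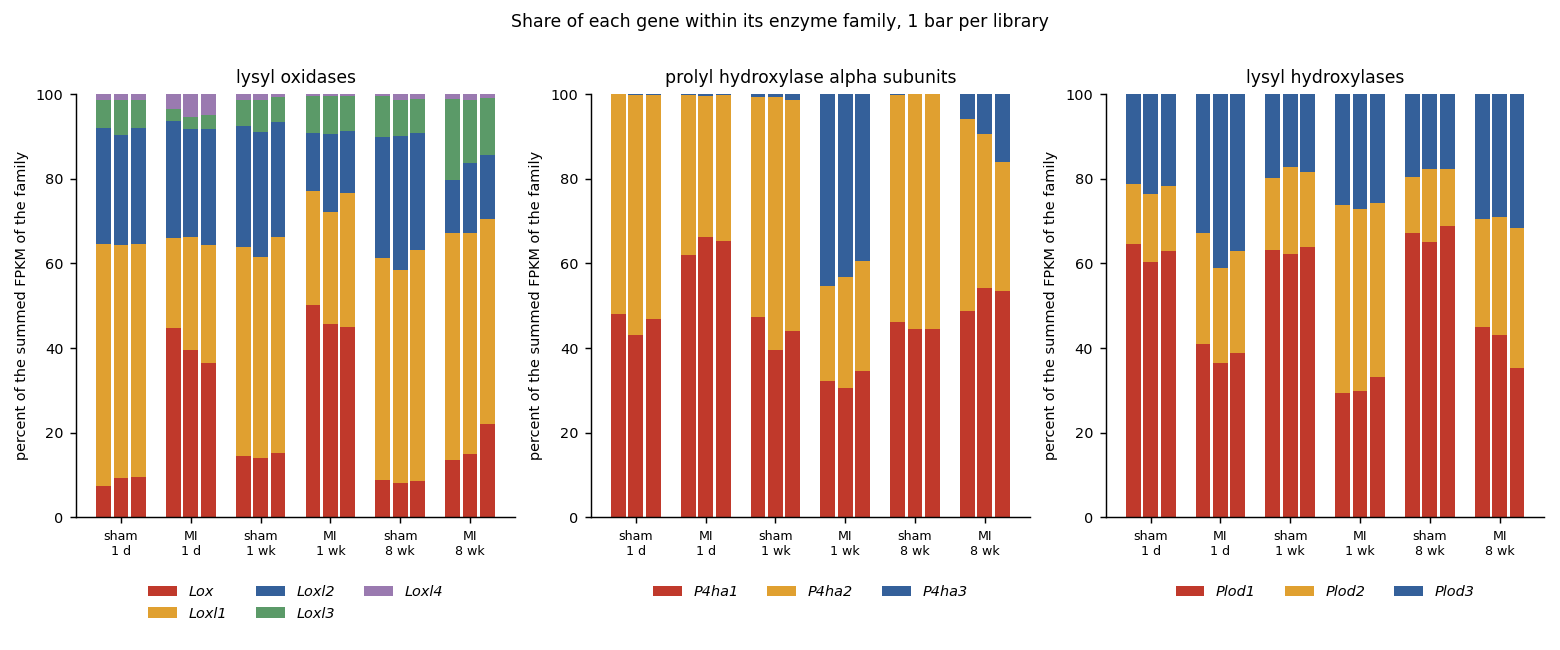
Percent of the summed FPKM of its enzyme family that each gene held, with 1 stacked bar per library and 3 libraries per group. In MI at 1 week Lox makes up 45.0 to 50.3 percent of the lysyl oxidases, P4ha3 39.4 to 45.4 percent of the prolyl hydroxylase alpha subunits and Plod2 41.0 to 44.4 percent of the lysyl hydroxylases.

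The hydroxylase families shifted too. P4ha3 held at most 1.47 percent of the P4ha1, P4ha2 and P4ha3 sum in any sham library, 0.171 to 0.405 percent in MI at 1 day, 39.4 to 45.4 percent at 1 week and 5.79 to 16.1 percent at 8 weeks. P4ha1 and P4ha2 shared the family in sham, P4ha2 having 51.9 to 59.6 percent, and at 1 day of MI P4ha1 had 62.0 to 66.3 percent. Of the lysyl hydroxylases Plod1 held 60.3 to 68.7 percent in sham. It held 36.5 to 40.8 percent in MI at 1 day, 29.5 to 33.3 percent at 1 week and 35.4 to 45.0 percent at 8 weeks, none of which overlaps the sham range. Plod2 was the largest lysyl hydroxylase in MI of 1 week only. The log2 ratio of P4ha3 to P4ha1, on FPKM + 1, was higher in MI by 3.51 at 1 week and 1.67 at 8 weeks (exact two-sided permutation test, p = 0.1, the smallest possible). At 1 day its difference of -1.33 reflects P4ha1 over the pseudocount, since P4ha3 was below 0.2 FPKM in every library.

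The MI effect differed between stages for most of the genes. From 1 day to 1 week it grew for 9 of the 10 genes, all but P4ha1, by 1.34 (Plod1) to 5.09 (P4ha3) log2 units, where 60 percent of tested genes had a higher and 11.8 percent a lower effect. From 1 week to 8 weeks it shrank for all 10 genes, by -0.95 (Pcolce) to -3.11 (Lox), where 29.9 percent of tested genes had a lower and 17.1 percent a higher effect. The fall was smallest for Pcolce, Loxl1 and P4ha1. Relative to the median of all genes the differences were 0.78 to 4.53 for those 9 genes and -0.75 to -2.91 for the 10 genes. The value of Pcolce from 1 week to 8 weeks was not called without sham replicate 2 of 1 week (-0.78), without sham replicate 3 of 8 weeks (-0.86) or with only the groups compared. These contrasts share the 1 week libraries and are not independent.

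Other genes of collagen maturation and transport, a list of modifying enzymes, chaperones and proteinases, were measured for 29 members. At 1 day 17 were higher and 5 lower, against 39.7 and 30.6 percent of all tested genes, with a median log2 fold change of 0.48 beside 0.38 for the 10 genes. The largest changes at that stage among genes with a mean of at least 5 FPKM were those of Ero1l, an oxidase that reoxidises protein disulphide isomerase (3.90 ± 0.346 to 92.9 ± 6.35 FPKM), P4hb, the beta subunit of prolyl 4-hydroxylase (86.5 ± 3.72 to 267 ± 2.95 FPKM), the lysyl hydroxylase Plod3 (8.08 ± 0.449 to 21.3 ± 2.17 FPKM) and the transglutaminase Tgm2 (64.8 ± 3.29 to 193 ± 15.0 FPKM). At 1 week 28 were higher and none lower, against 72.8 and 16.5 percent of all genes, with a median of 2.29 beside 3.84. The MI effect of Ero1l and Tgm2 was smaller at 1 week than at 1 day, by -3.20 and -1.01 (adjusted p = 4.04e-09 and 2.09e-05). The largest changes were those of the N-proteinase Adamts2 (3.82 ± 0.682 to 128 ± 4.11 FPKM), the collagen-binding Sparc (157 ± 33.0 to 3761 ± 384 FPKM), the C-proteinase Bmp1 (6.23 ± 0.349 to 119 ± 16.9 FPKM) and the prolyl 3-hydroxylase Leprel2 (3.57 ± 0.672 to 69.0 ± 5.33 FPKM). At 8 weeks 28 were higher and none lower, against 70.4 and 10.6 percent of all genes, with a median of 1.18 beside 2.24, and Pcolce2, the relative of Pcolce, rose from 4.50 ± 0.138 to 48.1 ± 19.3 FPKM. Leprel2, Sparc and Adamts2 were again among the highest. Other scalings moved these counts, to 24 higher and 2 lower at 1 week and 17 higher and 4 lower at 8 weeks with quantile normalisation. Of the 12858 tested genes that scaling called 5203 higher and 5179 lower at 1 week, and 3783 and 5263 at 8 weeks.

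Of 7 substrates of these enzymes, collagen I, III and V chains, elastin and fibrillin, 2 were higher at 1 day (Col5a2 and Fbn1) and none lower, with a median log2 fold change of -0.18, where 39.7 percent of all tested genes were higher and 30.6 percent lower. At both later stages all 7 were higher, as were 72.8 and 70.4 percent of all genes, with medians of 5.61 and 3.64, which compares with 3.84 and 2.24 for the 10 enzymes and helpers. Of 16 genes known to be induced by hypoxia, 13 were higher and 1 lower at 1 day, with a median of 1.08, among them the glucose transporter Slc2a1 (4.79 ± 0.0689 to 125 ± 2.23 FPKM), the glycolytic regulator Pfkfb3 (1.75 ± 0.167 to 37.7 ± 4.80 FPKM), the peptide hormone Adm (2.99 ± 0.561 to 35.4 ± 6.24 FPKM) and the oxygen sensor Egln3 (18.8 ± 2.76 to 112 ± 1.496 FPKM). At 1 week 7 were higher and 8 lower, against 72.8 and 16.5 percent of all genes. Hk2, Vegfa and Egln1 fell by 1.95, 1.91 and 1.73 on the log2 scale. Pfkfb3 stayed higher, at 1.15 to 1.42 FPKM in the sham and 9.63 to 11.2 FPKM in the MI libraries of that stage. At 8 weeks 8 were higher and 5 lower, against 70.4 and 10.6 percent of all genes. With quantile normalisation 2 were higher and 8 lower, where 3783 of the 12858 tested genes were higher and 5263 lower. Whether hypoxia had a part in the early rise of Lox, Loxl2, P4ha1 and Plod2 was not tested.

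The genes whose profile over the 18 libraries was closest to that of a member, by root mean square difference of centred log2(FPKM + 1), were Fn1 for Lox (0.44), Apoe for Loxl1 (0.17), Emilin1 for Loxl2 (0.29), Tgfb3 for Loxl3 (0.19), Col5a1 for P4ha3 (0.23) and Igf1 for Pcolce (0.21). The profiles of P4ha1, Plod1, Plod2 and Serpinh1 were closest to those of Spire1 (0.17), Sdk1 (0.11), Dclk1 (0.17) and Specc1 (0.19). Among the 10 genes Loxl1 and Loxl3 were most alike (0.34) and Lox and Plod1 least (2.27). All these distances rest on the same 6 groups and their shared sham libraries.

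The 3 MI libraries of 8 weeks ranked alike in all 10 genes, with replicate 3 highest and replicate 1 lowest, as 66.1 percent of all tested genes did. Replicate 3 held between 1.52 times (Plod1) and 5.30 times (Lox) the level of replicate 1, whereas the highest and lowest MI libraries of 1 week differed by 1.05 to 1.53 times. Because of this spread every pair of neighbours in level overlapped, except Plod2 and P4ha3, the lowest. Markers of fibroblasts, adipocytes and mesothelial cells ranked in the same order. Those of ventricular cardiomyocytes ranked in the reverse order, and those of skeletal muscle in neither. The mean log2(FPKM + 1) of activated fibroblast markers was 4.80, 5.50 and 6.22 in replicates 1, 2 and 3, that of resting fibroblast markers 5.71, 6.67 and 7.16, and that of ventricular cardiomyocyte markers 10.4, 9.96 and 9.26. Adipocyte markers, 5 of 6 being found, were at 0.375, 5.27 and 6.93, against 0.129 to 0.214 in sham libraries. Mesothelial markers stood at 1.62, 2.32 and 4.81, and skeletal muscle markers at 2.63, 1.79 and 4.77. Without replicate 3 the same number of the 10 genes, 9, was called higher, with a median log2 fold change of 1.80 in place of 2.24. Without replicate 1 all 10 were called higher, with a median of 2.68. Relative to the median of all tested genes these medians were 1.39 and 2.04, against 1.72 with all libraries. With all libraries 70.4 percent of all tested genes were called higher, and the share without a replicate is not given here. The part of the other tissues in these libraries was not tested.

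**Figure D4:**
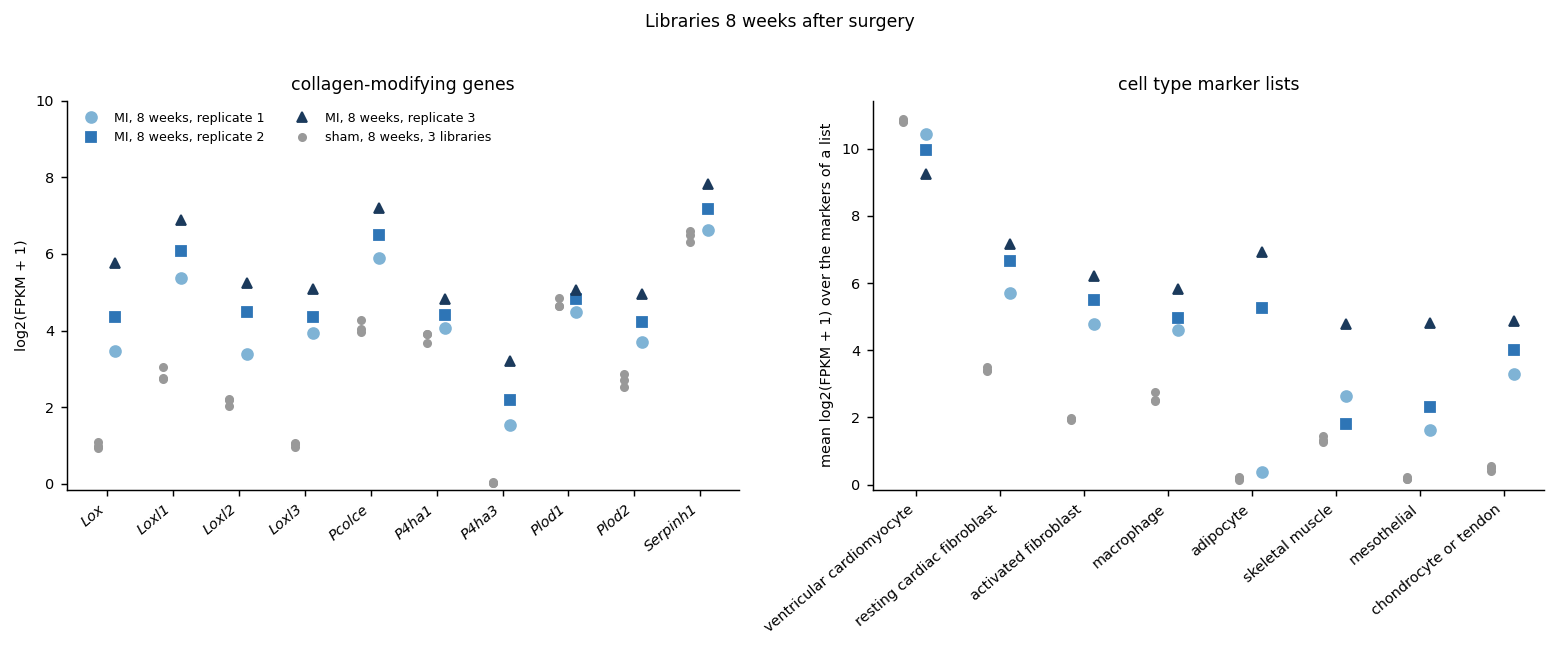
log2(FPKM + 1) of the 10 genes (left) and mean log2(FPKM + 1) over the markers of 8 cell type lists (right) in the libraries of 8 weeks (grey points, 3 sham libraries; blue symbols, MI replicates 1, 2 and 3). Replicate 3 is the highest MI library for each of the 10 genes, while its cardiomyocyte markers are the lowest, 9.26 against 10.4 in replicate 1.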

How the data were processed

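Left ventricular mRNA libraries of MI and sham mice were analysed in 6 groups of 3, and the small RNA libraries were not used here. The authors deposited FPKM per gene. The submitters' processing notes list Cufflinks 2.2.1, TopHat2 2.0.13, Bowtie2 2.2.3 and the build mm10, while options and annotation release are not given in the sources used here. The authors' own fold changes, p-values, normalised columns and group means were not used. For 12858 genes that reached 1 FPKM in 3 or more libraries, log2(FPKM + 1) was fitted with limma 3.58.1 (intensity trend, 6 groups, 12 residual degrees of freedom), with Benjamini-Hochberg adjustment over all tested genes. limma replaces the pairwise tests of the study.

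The 10 genes, the lists and the alternatives were chosen with earlier results of these data known. Named list genes were at most 4 per list and stage: called, without overlap of libraries, with a mean of at least 5 FPKM and the largest fold change. The 2 nearest profiles of each gene left out predicted genes, and the nearer is given. Col1a1 was named as the partner of a ratio. Positions and promoters are from RefSeq (GRCm38.p6, the same build as mm10). Promoters were looked up for 5 of the genes. In simulated data for the 1 day comparison over 12858 genes, with 200 changed, limma recovered 46, 94, 100 and 98 percent of changes of 0.5, 1, 2 and 4 log2 units, with 7 false calls. The simulation gave a gene the same spread in all groups and changed far fewer genes than were called in the data. Its rates therefore check the code and do not describe the real comparison. No libraries were copies of each other (highest correlation 0.9965). Of the genes 32 have no symbol. Alternatives were a pseudocount of 0.1, no filter, a mean of at least 5 FPKM, quantile normalisation, median-ratio factors, no trend, the replicate number as a block, only the groups compared, and leaving out each library. Python 3.11.15, pandas 2.3.3, numpy 2.4.6, matplotlib 3.10.9 and R 4.3.3 were used.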

Additional observations from a re-analysis of the deposited data

Results flagged for a closer look

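The effect of MI differed between stages for 19 of 20 combinations of gene and neighbouring stages, by the interaction contrast in limma (adjusted p below 0.05). Of all tested genes 60 percent had a higher and 11.8 percent a lower effect at 1 week than at 1 day. At 8 weeks 17.1 percent had a higher and 29.9 percent a lower effect than at 1 week. Both contrasts use the 1 week libraries and are not independent. From 1 day to 1 week the log2 fold change grew by 3.49 for Lox, 3.94 for Loxl1, 2.81 for Loxl2, 4.76 for Loxl3, 5.09 for P4ha3, 1.34 for Plod1, 2.22 for Plod2, 2.78 for Serpinh1 and 3.74 for Pcolce. P4ha1 is the exception, at 0.26. From 1 week to 8 weeks the difference was -3.11 for Lox, -1.15 for Loxl1, -2.05 for Loxl2, -1.57 for Loxl3, -1.12 for P4ha1, -2.96 for P4ha3, -1.24 for Plod1, -1.83 for Plod2, -2.32 for Serpinh1 and -0.95 for Pcolce, the last of which was not called when sham replicate 2 of 1 week or sham replicate 3 of 8 weeks was left out.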

How the results depend on the processing

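Most values held: of the comparisons of single genes with sham, 402 of 420 kept their direction and their side of the threshold under the alternatives, as did 395 of the differences between stages and 269 of the sham contrasts. The 1 week calls held under every alternative. The pooled spread limits the 1 day calls, of which 4 were higher, against 8 higher and 1 lower with the 1 day libraries alone. In these fits 39.7 and 44.1 percent of all tested genes were called higher, and 30.6 and 33.9 percent lower. With quantile normalisation 2 genes were called lower at 1 day (Pcolce and Plod1, -0.21) and 1 at 8 weeks (Plod1, -0.40), and with median-ratio factors 1 at 1 day (Pcolce), 1 at 8 weeks (Plod1, -0.62) and 1 from 1 day to 1 week (P4ha1, -0.54, against -0.15 with quantile normalisation). Each of these 2 scalings called 7 of the 10 genes higher at 8 weeks in place of 9, where 3783 and 4574 of all 12858 tested genes were higher. P4ha1 at 8 weeks turned to -0.071 with median-ratio factors. Leaving out 1 library moved Plod1 between -0.067 and 0.023 at 1 day (MI replicates 1 and 2) and between -0.069 and 0.22 at 8 weeks (MI replicates 3 and 1). Pcolce from 1 week to 8 weeks missed the threshold with only the groups compared (-0.95, adjusted p = 0.0608), without sham replicate 2 of 1 week (-0.78) and without sham replicate 3 of 8 weeks (-0.86). Between sham stages 1 gene was called higher at 1 week and 4 lower at 8 weeks with only those groups, and 1 higher at 8 weeks with median-ratio factors, and Serpinh1 turned to 0.044 with quantile normalisation and 0.074 with median-ratio factors, and ran from -0.14 to 0.11 when 1 sham library was left out (replicates 2 and 3 of 1 week). With a pseudocount of 0.1 the log2 ratio of Lox to Loxl1 differed by 3.26, 2.46 and 0.88 at the 3 stages, that of Plod2 to Plod1 by 1.36 at 1 day, and that of P4ha3 to P4ha1 by -0.73, 5.38 and 4.35. In sham libraries P4ha3 was at most 0.374 FPKM and Lox 0.916 to 3.68 FPKM, so that the pseudocount itself moves their ratios. Same-numbered MI and sham libraries did not deviate together (correlation over 0.1 in 2 of 9 pairs, from -0.0919 to 0.29), and with the replicate number as a block the calls were 4, 10 and 9 higher at the 3 stages, with no call of the 10 genes changed.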
